A study of Homo sapiens with 6 samples.

Results

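Versican, CD44, the hyaluronan synthases and the heparan sulfate proteoglycans of the cell surface and basement membrane were followed in the pancreatic ductal adenocarcinoma (PDAC) line PaTu8988t with and without the chromatin protein SAMD1. The 10 genes *VCAN*, *CD44*, *HAS2*, *HAS3*, *SDC1*, *SDC2*, *SDC4*, *GPC1*, *GPC4* and *HSPG2* were taken by gene symbol from the 20347 genes in the normalized counts, and all 10 were found. Poly(A) RNA was sequenced from 3 replicates of PaTu8988t control cells and from 3 SAMD1 KO libraries. Control cells received a CRISPR/Cas9 plasmid with an unspecific guide RNA, and SAMD1 KO cells received the same kind of plasmid with guides against *SAMD1*. Each SAMD1 KO library is 1 clone, so the KO libraries differ by clone while the control libraries are replicates. No age, drug or time point distinguishes the groups, and all cells were grown in DMEM with high glucose and 5% fetal bovine serum.

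These genes build much of the carbohydrate coat around a cell. Hyaluronan is a long sugar polymer that HAS enzymes spin out through the plasma membrane, CD44 is its main receptor, and versican is a large chondroitin sulfate proteoglycan that binds hyaluronan in loose, provisional matrix. Syndecans (*SDC* genes) span the membrane and glypicans (*GPC* genes) are tethered to it by a lipid anchor. Both carry heparan sulfate chains that hold growth factors such as WNT, Hedgehog and FGF ligands, and perlecan, the product of *HSPG2*, carries the same chains in basement membranes. In PDAC a matrix rich in hyaluronan is a known feature of the tumor tissue.

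The libraries held between 35589477 and 45172216 reads counted on the listed genes. *SAMD1* itself had between 2231 and 2382 normalized counts in the control libraries and between 824.8 and 1082 in the KO clones. A normalized count is the number of reads on a gene divided by a size factor of its library. Of 5 epithelial markers, 4 were expressed highly enough to be tested, *KRT8* at 32902 to 57041 normalized counts, and *KRT19* was listed at 0 in every library. Epithelial markers summed to between 62681 and 65891 in control and between 67617 and 108550 in KO libraries, with *KRT7* and *KRT18* called higher. Of 7 fibroblast markers, 5 had at most 10 reads in every library, *DCN* and *LUM* had none, and their summed level ran from 56.7 to 58.4 in control and from 34.2 to 60.5 in KO libraries. Among them *PDGFRA* rose, from between 3.44 and 4.58 to between 14.7 and 23.7 normalized counts. *COL1A1*, which held most of the control sum, went the other way. It had 50.3, 48.9 and 52.7 in control and 21.8, 41.5 and 15.3 in the clones, and was not called (limma adjusted p = 0.098). Of 5 leukocyte markers, 4 had at most 10 reads in every library and the sum ran from 357.4 to 376.7 in control and from 250.5 to 333.7 in KO libraries. Nearly all of it was *CD68*, with 353.5, 367.9 and 355.1 in control and 304.6, 241.9 and 325.6 in the clones. The 3 endothelial markers summed to between 77.8 and 84.8 in control and between 33.6 and 83.7 in KO libraries. Of these, *CDH5* had 37.7, 29.4 and 32.1 in control and 2.97, 17.3 and 11.7 in the clones, and was not called (limma adjusted p = 0.0748). *PECAM1* and *VWF* overlapped between the groups. The part of these markers in the results was not tested. Libraries come from clonal or bulk cultures, in which fewer expressing cells and less RNA per cell cannot be told apart.

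Of the 10 genes, 9 reached a mean of 10 normalized counts and were tested. *VCAN*, *HAS3*, *GPC1* and *GPC4* rose in SAMD1 KO cells and *HSPG2* fell, while *CD44*, *SDC1*, *SDC2* and *SDC4* did not pass the cut-off of a log2 fold change beyond 0.5 with an unadjusted limma p below 0.01. These are 5 of 9 genes, where 7.85% of all 12773 tested genes were called (5.77% higher and 2.08% lower). The members were chosen with earlier results on these libraries known, so this share is a description. Control and KO values were free of overlap for 6 of the 9 genes, as for 37.8% of all tested genes. The median log2 fold change of the 9 genes was 0.16, beside −0.0059 over all tested genes.

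SAMD1 is known to bind CpG islands with a preference for the letters GCGC, so the promoters of some genes of this group are shown as examples. *HAS3* and *GPC4*, which changed more than *HSPG2*, are not among those shown. Binding itself was not analysed here. The windows run from 250 bases before to 50 bases after a start annotated by RefSeq on GRCh38.p14. They read 5′ to 3′ on the strand of the gene and have every GCGC in capitals. These starts can differ from the GENCODE gene starts given below. The *CD44* window begins at 35138921, after its GENCODE start of 35138882, and the *HAS3* window at 69107290, after 69105653. Other starts of these genes were not examined. They are *VCAN* (chr5:83471494-83471793, plus strand), which rose most, *GPC1* (chr2:240435413-240435712, plus strand), the glypican with the larger rise, *HSPG2* (chr1:21937261-21937560, minus strand), the gene that fell, and *CD44* (chr11:35138921-35139220, plus strand), which stayed near its control level.
VCAN promoter: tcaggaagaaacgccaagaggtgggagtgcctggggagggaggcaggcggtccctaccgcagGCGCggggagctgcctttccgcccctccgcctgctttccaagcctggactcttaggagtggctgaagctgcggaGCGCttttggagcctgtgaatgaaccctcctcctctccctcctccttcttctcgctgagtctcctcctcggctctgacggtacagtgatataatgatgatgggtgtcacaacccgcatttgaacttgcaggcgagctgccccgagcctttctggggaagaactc
GPC1 promoter: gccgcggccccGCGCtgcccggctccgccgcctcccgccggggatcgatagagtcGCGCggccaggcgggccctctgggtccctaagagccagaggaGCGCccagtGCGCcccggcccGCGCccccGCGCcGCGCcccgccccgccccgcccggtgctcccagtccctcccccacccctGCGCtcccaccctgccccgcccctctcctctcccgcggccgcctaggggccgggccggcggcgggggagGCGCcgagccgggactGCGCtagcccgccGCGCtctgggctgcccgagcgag
HSPG2 promoter: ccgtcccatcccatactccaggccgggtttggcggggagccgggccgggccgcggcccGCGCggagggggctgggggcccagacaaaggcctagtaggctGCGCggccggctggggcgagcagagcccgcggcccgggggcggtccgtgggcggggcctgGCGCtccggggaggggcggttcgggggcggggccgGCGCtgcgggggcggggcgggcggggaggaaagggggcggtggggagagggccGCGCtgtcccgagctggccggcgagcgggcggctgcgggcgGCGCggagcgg
CD44 promoter: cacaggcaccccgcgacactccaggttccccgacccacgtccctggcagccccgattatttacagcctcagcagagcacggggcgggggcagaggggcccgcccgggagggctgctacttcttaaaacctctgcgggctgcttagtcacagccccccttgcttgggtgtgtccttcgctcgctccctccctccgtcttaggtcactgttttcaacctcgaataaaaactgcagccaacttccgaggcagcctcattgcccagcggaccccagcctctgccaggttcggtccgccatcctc

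The letters GCGC, which read the same on both strands, were counted with overlaps allowed. The *GPC1* window held 11 of them among 45 CG pairs, and 2.58% of all 35116 promoter windows held at least as many GCGC. The *VCAN* window held 2 GCGC and 15 CG pairs, *HSPG2* held 6 and 44, and *CD44* held 0 and 18. For the other called genes, the share of windows with at least as many GCGC was higher. It was 43.7% for *VCAN*, 34.8% for *HAS3*, 27.4% for *GPC4* and 15.8% for *HSPG2*. Of the other genes, *HAS3* had 3 GCGC, *GPC4* 4 and *SDC4* 5, and the 2 windows listed for *SDC1* had 6 and 1. For *HAS2* and *SDC2* no window was used here. At least 1 GCGC was present in 57.2% of all windows and in 85.2% of the 10260 tested genes with a window, whose median was 3. No relation between this count and the changes was tested. A match is only a description of these letters in the window.

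**Figure D1:**
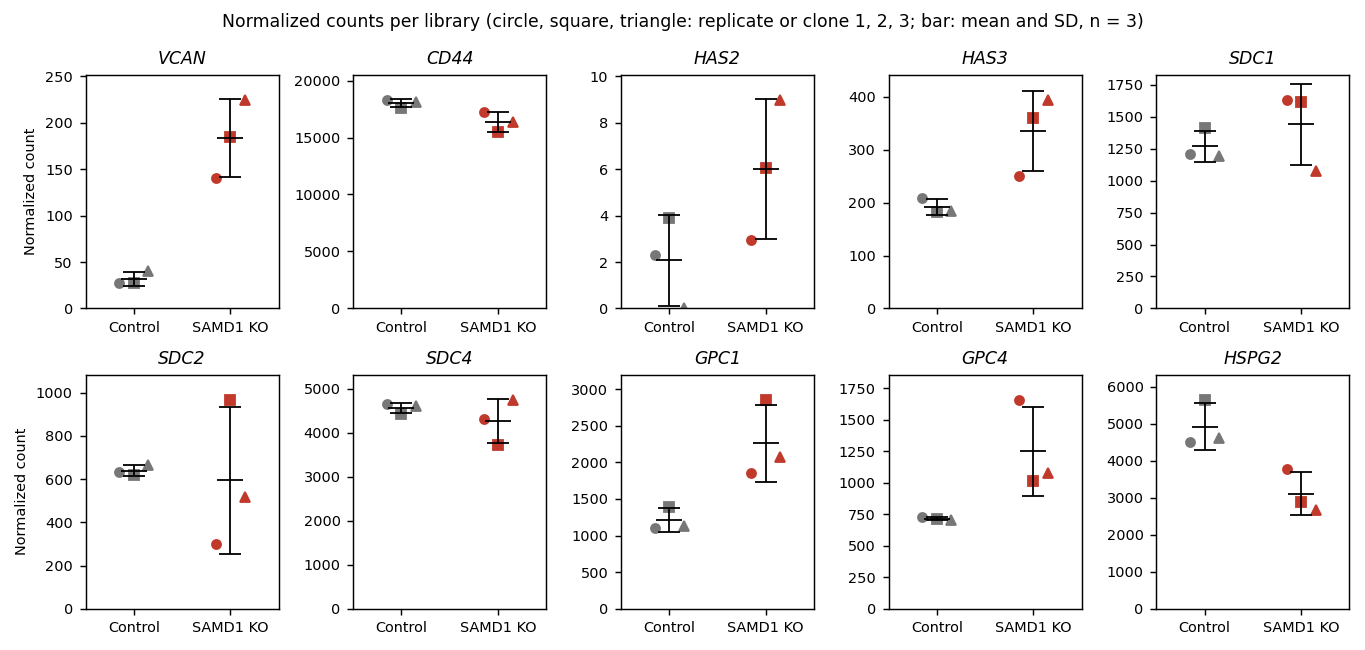
Normalized counts (vertical axis, linear from 0) of the 10 genes in 3 control replicates (grey) and 3 SAMD1 KO clones (red), with a bar for the mean and SD of each group (n = 3). For *VCAN*, *HAS3*, *GPC1* and *GPC4* each clone lies above each control replicate, for *HSPG2* and *CD44* each clone lies below, and for *SDC2* the clones spread on either side of the controls.

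*VCAN* (chromosome 5, 83471618 to 83582303, plus strand, GENCODE 44 on GRCh38) encodes versican and had the largest change of the group. Its normalized counts were 27.5, 27.4 and 40.1 in control replicates 1 to 3, against 140.4, 184.9 and 224.9 in SAMD1 KO clones 1 to 3. Even the lowest clone was far above the highest control library. The mean rose from 31.6 ± 7.31 to 183.4 ± 42.2 (SD, n = 3 each), a 5.79-fold difference, with a fitted log2 change of 2.49 ± 0.24 (SE, adjusted p = 0.00137 by limma). The control values rest on only 24, 28 and 35 reads, so counting error can be part of their spread. The rise was called with each library left out in turn, with log2 fold changes between 2.33 and 2.67. In clone 2 the 40 nearest tested genes, reaching 6.94 Mb away, were shifted against control by a median of −0.55 on the log2 scale, while *VCAN* in that clone was higher than control by 2.53 on this scale. With these local medians subtracted in each library its log2 fold change was 2.63.

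Per kilobase of its longest annotated transcript, *VCAN* remained among the scarcer transcripts of the group in spite of this rise. It went from 2.56 ± 0.592 to 14.9 ± 3.42 normalized counts per kilobase (SD, n = 3 each), and its mean level over all libraries was at the 6.56th percentile of tested genes.

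The hyaluronan synthases were led by *HAS3* (chromosome 16, 69105653 to 69118719, plus strand). It had 208.2, 182.0 and 184.4 normalized counts in the control replicates, against 251.2, 360.3 and 394.9 in clones 1 to 3. All clones were above all control replicates, with clone 1 closest to them. The mean rose from 191.5 ± 14.5 to 335.4 ± 75 (SD, n = 3 each), with a fitted log2 change of 0.78 ± 0.18 (SE, adjusted p = 0.0319 by limma). The call was lost without control replicate 2 (log2 fold change 0.75), without control replicate 3 (0.76) and without clone 2 (0.72). The unadjusted limma p-values of these fits were 0.0140, 0.0131 and 0.0103, a little above the limit of 0.01. Their adjusted p-values were 0.127, 0.128 and 0.0655. Genes near *HAS3* were lower in clones 1 and 2, with median log2 differences of −0.24 and −0.22, and with these subtracted its log2 fold change was 0.93 (adjusted p = 0.0054).

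*HAS2* (chromosome 8, 121612116 to 121641440), which encodes another of the synthases, was barely detected. It had 2, 4 and 0 reads in the control replicates, against 3, 7 and 10 in clones 1 to 3, or at most 8.99 normalized counts. The groups overlapped and the gene was below the count minimum. Tested without that minimum it showed a fitted log2 change of 1.37 ± 0.64 (SE, adjusted p = 0.237 by limma), so a difference was not detected with these few reads and 3 libraries a group. *HAS1* had at most 10 reads in any library. Per kilobase *HAS3* therefore made up 93.3% ± 4.14 of the synthase transcripts in the controls and 96.8% ± 2.03 in the clones (SD, n = 3 each, exact permutation p = 0.3, two-sided), and the sum of the 3 genes was 1.69-fold higher in the clones (exact permutation p = 0.1, the smallest that 3 against 3 libraries allow).

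*CD44* (chromosome 11, 35138882 to 35232402, plus strand), the hyaluronan receptor, was the most abundant of the 10 transcripts. Its normalized counts were 18326, 17599 and 18152 in the control replicates, against 17222, 15441 and 16326 in clones 1 to 3. Every clone was a little below every control replicate. The mean went from 18026 ± 380 to 16330 ± 891 (SD, n = 3 each), 90.6% of control. The log2 fold change was −0.14 (95% interval −0.28 to −0.0086, limma adjusted p = 0.147), which did not pass after adjustment and is far inside the cut-off of 0.5. Without clone 1 the adjusted p was 0.0483 at a log2 fold change of −0.18. In clone 1 the genes near *CD44* were shifted by a median of −0.33 (log2), and with local medians subtracted its log2 fold change was −0.070. The gene has 38 annotated transcripts, and the counts sum over them, so the choice between standard and variant forms of CD44 was not measured.

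Among the syndecans, no gene passed the cut-off, and the clones differed from each other more than the groups did. *SDC2* (chromosome 8, 96493813 to 96611790) had 630.3, 620.3 and 666.7 normalized counts in the control replicates, against 297.6, 965.9 and 519.0 in clones 1 to 3. Clones 1 and 3 were below all controls and clone 2 above them, a 3.25-fold range among clones against 1.07-fold among control replicates. The SD of its log2 values over the clones, 0.85, was larger than that of 97.6% of tested genes. The log2 fold change of −0.27 (95% interval −1.13 to 0.60, limma adjusted p = 0.672) turned to 0.15 when clone 1 was left out. The 40 nearest tested genes had median log2 differences of only −0.040, −0.14 and 0.045 in the 3 clones, so the neighbourhood did not share this pattern.

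*SDC1* (chromosome 2, 20200797 to 20225433, minus strand), the main syndecan of epithelia, had 1208, 1409.9 and 1191 normalized counts in the control replicates, against 1634, 1615 and 1071 in clones 1 to 3. Clones 1 and 2 were above the controls and clone 3 below (log2 fold change 0.16, 95% interval −0.23 to 0.55, limma adjusted p = 0.57), and without clone 3 the value was 0.36. *SDC4* (chromosome 20, 45325288 to 45348424, minus strand), a syndecan of focal adhesions, had 4648, 4420 and 4616 normalized counts in control and 4319, 3731 and 4746 in the clones. Its groups overlapped, with clone 2 the lowest library (log2 fold change −0.10, 95% interval −0.31 to 0.10, limma adjusted p = 0.476).

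The syndecan transcripts were nevertheless almost constant in sum. Per kilobase of longest transcript, *SDC1*, *SDC2*, *SDC3* and *SDC4* together came to 2567, 2544 and 2549 in the control replicates, against 2527, 2531 and 2507 in clones 1 to 3. The whole range over the 6 libraries was 2.37% of their mean, although the share of *SDC2* ran from 3.56% in clone 1 to 11.5% in clone 2 and that of *SDC4* from 56.4% in clone 2 to 72.5% in clone 3. The clones were lower than the controls in sum by a small margin (2521 ± 12.7 against 2554 ± 12.1, SD, n = 3 each, exact permutation p = 0.1). With the union of all exons as length the range was 3.08%. By the same measure the sums of the glypicans and of the hyaluronan synthases ranged over 75.6% and 78.2% of their means. The constancy was seen in the values and was not foreseen, and *SDC4* alone holds most of the sum.

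**Figure D2:**
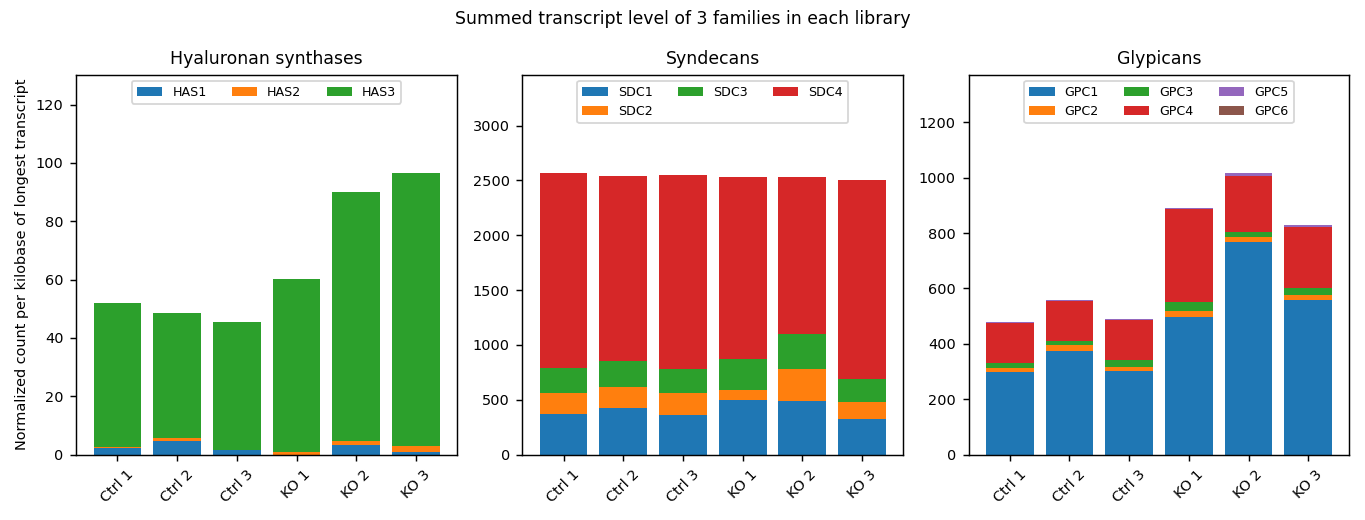
Summed level (normalized count per kilobase of longest annotated transcript, linear axis from 0) of the hyaluronan synthases, syndecans and glypicans in each of the 6 libraries, with colours for the genes. The syndecan bars stand between 2507 and 2567 in all libraries with a changing make-up, while the glypican bars run from 480.4 to 557.9 in control and from 829.0 to 1017 in SAMD1 KO cells.

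Both glypicans of the group rose. *GPC1* (chromosome 2, 240435663 to 240468076, plus strand), which encodes the glypican most often described in pancreatic cancer, had 1105, 1396 and 1125 normalized counts in the control replicates, against 1854, 2854 and 2071 in clones 1 to 3. The groups did not overlap, and clone 2 was the highest. The mean rose from 1209 ± 163 to 2260 ± 526 (SD, n = 3 each), 1.87-fold, with a fitted log2 change of 0.89 ± 0.17 (SE, adjusted p = 0.0162 by limma). It was called with each library left out in turn, at log2 fold changes between 0.71 and 1.02, and the adjusted p stayed below 0.05 in 4 of these 6 fits. The genes near it, at the end of the long arm of the chromosome, were also higher in each clone, with median log2 differences of 0.17, 0.21 and 0.24. With these subtracted the log2 fold change was 0.68 and the gene was still called (adjusted p = 0.0229).

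*GPC4* (chromosome X, 133300103 to 133415489, minus strand) had 728.6, 711.3 and 704.5 normalized counts in the control replicates, against 1656, 1012 and 1078 in clones 1 to 3. The clones were all above the controls, and clone 1 stood apart from the other two. The mean rose from 714.8 ± 12.5 to 1248 ± 355 (SD, n = 3 each), with a fitted log2 change of 0.77 ± 0.18 (SE, adjusted p = 0.0317 by limma). In clone 1 the 40 nearest tested genes, reaching 9.69 Mb away, were shifted by a median of 0.92 (log2), against −0.068 and −0.026 in clones 2 and 3. With the local medians subtracted, the log2 fold change of *GPC4* was 0.49 (adjusted p = 0.0124), just under the cut-off, and without clone 1 it was 0.55 and still called. The call was also lost without control replicate 1, 2 or 3, at log2 fold changes of 0.78, 0.76 and 0.76. The unadjusted limma p-values of these fits were 0.0102, 0.0121 and 0.0118, a little above the limit of 0.01. Their adjusted p-values were 0.118, 0.117 and 0.122. Whether the level of *GPC4* in clone 1 comes from the shift of its neighbourhood was not tested.

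Summed over *GPC1* to *GPC6*, glypican transcripts per kilobase rose from 509.0 ± 42.6 to 912.0 ± 96.0 (SD, n = 3 each), 1.79-fold, without overlap (exact permutation p = 0.1). *GPC1* held 63.7% ± 3.12 of the sum in the controls and 66.2% ± 9.74 in the clones, and *GPC4* 28.5% ± 2.50 and 27.9% ± 8.87 (exact permutation p = 0.8 and p = 1). For these 2 genes the difference in share was smaller than the SD among the clones. The share of *GPC2*, named after its values were seen, was lower in every clone, at 3.17% ± 0.607 in the controls and 2.04% ± 0.213 in the clones (exact permutation p = 0.1). The level of *GPC2* itself was not lower. It had 41.2, 51.9 and 30.9 normalized counts in control and 47.5, 46.7 and 46.8 in the clones (log2 fold change 0.21, limma adjusted p = 0.586). The shares themselves depend on the length used, and with the union of all exons *GPC1* held 51.7% and *GPC4* 40.4% in the controls.

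*HSPG2* (chromosome 1, 21822244 to 21937310, minus strand) was the gene that fell. Its normalized counts were 4503, 5646 and 4629 in the control replicates, against 3766, 2887 and 2682 in clones 1 to 3. Each clone was below each control library, with clone 1 the closest to them. The mean went from 4926 ± 627 to 3112 ± 576 (SD, n = 3 each), 63.2% of control, with a fitted log2 change of −0.67 ± 0.14 (SE, adjusted p = 0.0236 by limma). It was called with each library left out, at log2 fold changes between −0.82 and −0.57, and the adjusted p stayed below 0.05 in 2 of these 6 fits. Its neighbours had median log2 differences between −0.088 and −0.025 in the clones.

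**Figure D3:**
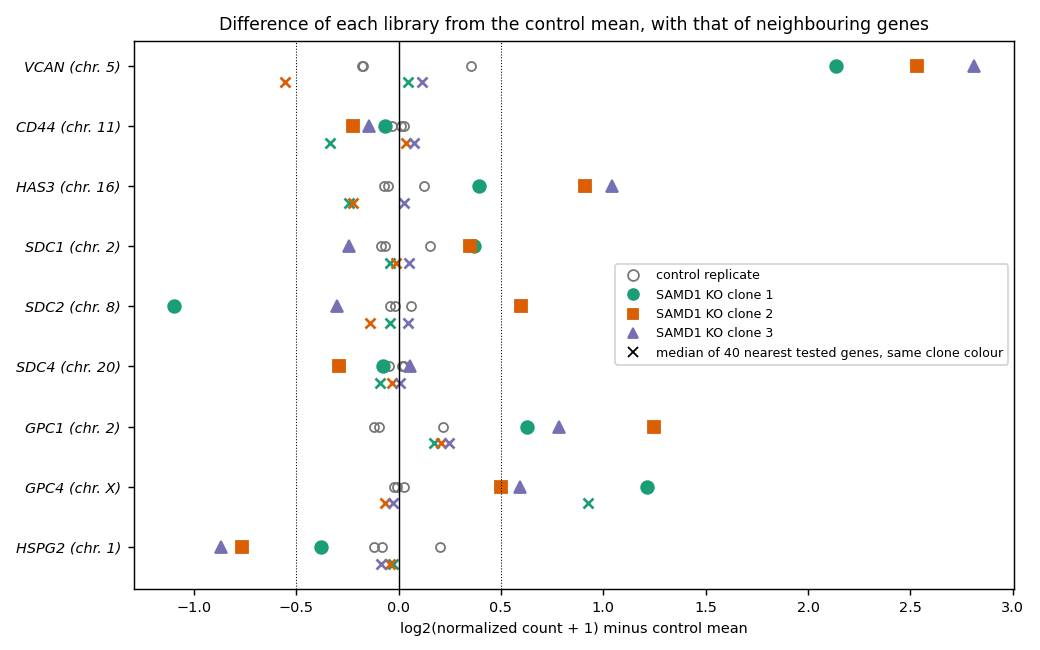
Difference of each library from the control mean on the log2(normalized count + 1) scale (horizontal axis) for the 9 tested genes, with open circles for control replicates, filled symbols for SAMD1 KO clones and crosses for the median of the 40 nearest tested genes in that clone. *VCAN* lies at 2.14, 2.53 and 2.81 in the 3 clones, *SDC2* spreads from −1.10 to 0.60, and for *GPC4* the clone 1 cross lies at 0.92.

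Across the group the clones were more variable than the control replicates, as they were for most genes. The SD of the log2 values was larger over the clones than over the controls for 9 of the 9 tested genes, and for 82.8% of all tested genes. The median SD over all tested genes was 0.15 among clones and 0.059 among controls, and 8 of the 9 genes were above the first value. *CD44* was the exception at 0.079. No clone was highest throughout, since clone 3 was highest for *VCAN* and *HAS3*, clone 2 for *GPC1* and *SDC2*, and clone 1 for *GPC4*.

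Levels of different genes were compared per kilobase of the longest annotated transcript. In control cells *CD44* led with 3319 ± 69.9 normalized counts per kilobase, followed by *SDC4* with 1746 ± 47.1 (SD, n = 3 each). *SDC1* (385.8 ± 37.0), *HSPG2* (343.5 ± 43.7) and *GPC1* (325.0 ± 43.8) came next and lay within each other's spread. *SDC2* (193.2 ± 7.38) and *GPC4* (144.1 ± 2.51) followed, then *HAS3* (45.4 ± 3.43), *VCAN* and *HAS2*. In SAMD1 KO cells *GPC1* (607.6 ± 141) came next after *SDC4*, beside *SDC1* (437.5 ± 97.0), and their means differed by less than the sum of their SDs. *GPC4* (251.8 ± 71.5), *HSPG2* (217.0 ± 40.2) and *SDC2* (179.7 ± 103) lay within each other's spread there, and the last 3 places were the same as in control.

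The genes that make, modify and cleave these molecules were followed in 10 further lists with 156 genes, of which 104 were tested. Of these, 9 were higher and 6 lower, or 14.4% called against 7.85% of all tested genes. In the list of other heparan sulfate proteoglycans 0 of 7 tested genes passed the limma cut-off (2 had an unadjusted p below 0.05), with a median log2 fold change of 0.23. Its most abundant gene, *AGRN*, which encodes agrin, had means of 13084 ± 1804 in the controls and 12661 ± 3843 in the clones (SD, n = 3 each).

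In the list of other lecticans, link proteins and chondroitin or dermatan sulfate proteoglycans, 9 of 27 genes were tested, with 1 higher, 2 lower and a median log2 fold change of −0.21. *PTPRZ1*, a receptor phosphatase whose extracellular part can carry chondroitin sulfate, had 9.15, 14.7 and 18.3 normalized counts in control and 56.4, 120.1 and 113.3 in the clones (log2 fold change 2.67 ± 0.37 SE, adjusted p = 0.00535 by limma). *BCAN*, which encodes brevican, a lectican like versican, moved the other way, with 258.5, 285.7 and 250.9 in control and 60.3, 71.7 and 84.5 in the clones (log2 fold change −1.87 ± 0.16 SE, adjusted p = 0.000861 by limma). *PRELP*, a small leucine-rich proteoglycan, fell from 30.6 ± 3.71 to 6.43 ± 1.09 (SD, n = 3 each, limma adjusted p = 0.00455). The clones held only 7, 6 and 8 reads of *PRELP*, and the controls 8, 15 and 16 of *PTPRZ1*. Each of these groups was free of overlap, and each gene was called with any library left out.

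Among the 10 tested genes for hyaluronan synthesis, breakdown and binding other than the members, 0 passed the limma cut-off (3 had an unadjusted p below 0.05), with a median of −0.075. *HMMR*, a hyaluronan-binding protein of dividing cells and the most abundant of them, had 7681 ± 147 normalized counts in the controls and 6402 ± 1833 in the clones (SD, n = 3 each). On chromosome 5 its neighbours were shifted in clone 2 by a median of −0.59 (log2), the library in which *HMMR* was lowest.

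Genes for heparan sulfate chains went both ways. Of 14 tested, 2 were higher and 2 lower, with a median log2 fold change of −0.13. *SULF2*, an extracellular enzyme that removes sulfate groups from heparan sulfate, had 41.2, 30.3 and 33.2 normalized counts in control and 308.5, 429.4 and 120.5 in clones 1 to 3, 8.20-fold higher in the mean (log2 fold change 2.83 ± 0.43 SE, adjusted p = 0.00757 by limma). *HS6ST3*, a sulfotransferase of the same chains, rose from 41.1 ± 2.05 to 111.2 ± 14.7 (SD, n = 3 each, limma adjusted p = 0.00325). *EXT1*, which with *EXT2* builds the heparan sulfate backbone, fell from 12811 ± 136 to 6519 ± 640 (SD, n = 3 each), 50.9% of control (log2 fold change −0.98 ± 0.074 SE, adjusted p = 0.000652 by limma), while *EXT2* had 7885 ± 103 and 7581 ± 1208 (adjusted p = 0.72). *NDST1*, which starts the sulfation of the chain, had 8452, 9077 and 8675 in control and 6557, 4557 and 5792 in the clones (log2 fold change −0.65, limma adjusted p = 0.0168). It lies on chromosome 5, where its neighbours were shifted in clone 2 by a median of −0.55 (log2), and with local medians subtracted it was at −0.48 and no longer called.

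For the common linker that joins chains to core proteins, 1 of 6 tested genes was called, with a median of −0.053. *PXYLP1*, a phosphatase that acts on the linker xylose, was higher at a log2 fold change of 0.50, just past the cut-off. It kept its call in 2 of 6 leave-one-out fits and lost it with local medians subtracted, at 0.48. For chondroitin and dermatan sulfate chains, 3 of 15 tested genes were higher and 1 lower, with a median of −0.058. The sulfotransferases *CHST11*, *CHST13* and *UST* rose by log2 fold changes of 1.11, 0.89 and 1.04 (limma adjusted p = 0.00249, 0.0196 and 0.0226), and *CHST14*, which acts on dermatan sulfate, fell by 0.54 on the log2 scale (adjusted p = 0.00722). *CHST14* lost its call without clone 1, at −0.47, and with local medians subtracted, at −0.499. *CHST3*, of the same list, was also lower and missed only the fold change limit (log2 fold change −0.39, limma adjusted p = 0.0111). It had 2321, 2415 and 2281 normalized counts in control and 1653, 1831 and 1871 in the clones. *CHST11* had 584.5, 564.5 and 640.3 normalized counts in control and 1436, 1067 and 1386 in the clones. In the supply of sugar nucleotides and sulfate, 1 of 13 genes was called, with a median of 0.030. This was *UAP1*, which makes the N-acetylglucosamine donor used for hyaluronan and heparan sulfate, and it fell from 37599 ± 1218 to 23884 ± 3546 (SD, n = 3 each, limma adjusted p = 0.00886).

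Of 7 tested proteases and lipases, 2 were higher and 0 lower, with a median of 0.056. *ADAMTS9*, a secreted protease that cleaves versican, had 48.0, 47.9 and 58.4 normalized counts in control and 197.8, 381.9 and 453.3 in clones 1 to 3 (log2 fold change 2.64 ± 0.30 SE, adjusted p = 0.00261 by limma). *NOTUM*, a secreted hydrolase that inactivates WNT ligands, rose from 76.1 ± 4.98 to 166.7 ± 29.2 (SD, n = 3 each, limma adjusted p = 0.00676). *ADAM10*, a sheddase of CD44 and syndecans, had 7485 ± 205 and 7604 ± 562 (limma adjusted p = 0.862). Among 12 intracellular partners of CD44 and syndecans 0 passed the limma cut-off (6 had an unadjusted p below 0.05), with a median of 0.069. *CASK* was higher and missed only the fold change limit, at a log2 fold change of 0.499 (limma adjusted p = 0.0026). *EZR*, which encodes ezrin, had 35652 ± 298 in control and 29337 ± 4431 in the clones. Among 11 regulators of *CD44* splicing 0 passed (2 had an unadjusted p below 0.05), with a median log2 fold change of −0.15. In this fit all 11 were below 0, the nearest at −0.020, beside a share above 0 of 48.8% over all tested genes. The most abundant of these, *PCBP1*, had 17417 ± 355 and 16168 ± 411.

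**Figure D4:**
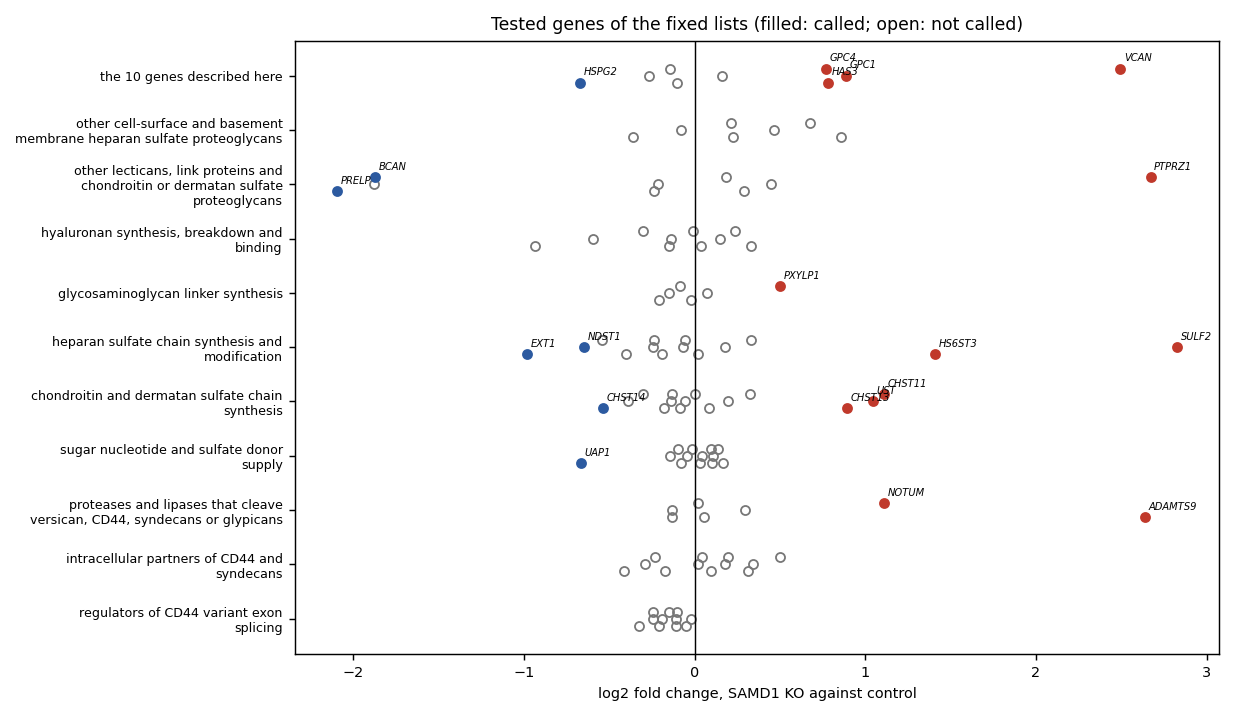
Log2 fold change in SAMD1 KO against control cells (horizontal axis) for each tested gene of the 10 genes described here and of the 10 further lists, with filled symbols for genes past the cut-off (red higher, blue lower) and open symbols for the others. *VCAN*, *PTPRZ1*, *SULF2* and *ADAMTS9* lie beyond 2, *BCAN* and *PRELP* lie near −2, and the regulators of *CD44* splicing lie between 0 and −0.33.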

How the data were processed

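Poly(A) RNA of PaTu8988t cells was sequenced in 3 control replicates and 3 SAMD1 KO clones, grouped by their labels. Alignment by the authors used RNA-STAR (2.7.10b) and GenCode 43. The labels also name featureCounts, DESeq2 and hg38. The deposited signal values are reads per gene after division by the size factor of each library. All values of a library (100%, within 0.01 of a read) were whole multiples of 1 step, so reads were recovered. The authors' DESeq2 table of their own comparison (fold changes and p-values) was not used. No sample column was left unused (0 columns). The strand setting of the counting is not given in the sources used here, so reads from overlapping or antisense genes cannot be separated.

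The 12773 of 20347 genes that averaged 10 or more normalized counts were compared on log2(normalized count + 1) with limma 3.58.1 (eBayes with trend, two-sided) in R 4.3.3, and p-values were adjusted by Benjamini-Hochberg over all tested genes. Single shares were tested by exact permutation, whose smallest p is 0.1. Following the study's methods, calls required an absolute log2 fold change over 0.5 and, before adjustment, p under 0.01. As the labels do not tie the control replicates to separate cultures, p-values measure the spread between these libraries. The fit pools both groups into a single variance per gene. The clones spread more than the control replicates (median log2 SD 0.15 against 0.059), and the p-values do not allow for this inequality. Fold changes on this scale understate changes of low genes. Counting noise weighs most on genes with few reads, among them *HAS2*, *VCAN*, *PRELP*, *PTPRZ1*, *SULF2* and *PDGFRA*. Gene positions and transcript lengths are from GENCODE 44 on GRCh38 and promoter windows from RefSeq on GRCh38.p14, where 8 of the 10 genes matched.

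The members and lists were chosen with earlier results of these data known. Named are all members, *SAMD1*, cell type markers, the called genes of each list (at most 6) and, where a list's level is given, its most abundant gene that was not called. *HAS1*, *GPC2*, *CASK* and *CHST3* were named after their values were seen. The fits were first tested on simulated data, where limma recovered 200 of 200 changed genes with 20 false calls. These data had the same dispersion for every gene and both groups, so the wider spread of the clones was not covered. Alternatives were pseudocounts of 0.1 and 10, no count minimum or one of 50, rescaling by the 75th percentile, TMM scaling, edgeR 4.0.16 and DESeq2 1.42.0 on recovered reads, a block for the replicate number, each library left out, an adjusted p below 0.05, subtracting the median of the 40 nearest tested genes, and the union of exons as length. Other steps used Python 3.11.15 with pandas 2.3.3.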

Additional observations from a re-analysis of the deposited data

How the results depend on the processing

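All 5 called genes kept their direction under every alternative run. Of 153 refits of single members, 145 kept both direction and side of the cut-off and 7 lost the call. In 1 refit the direction reversed for a gene that was not called in either fit. The reversal was *SDC2*, at 0.15 without clone 1, within a range of −0.70 to 0.15 over the libraries left out. With libraries left out in turn, between 3 and 5 members were called (3 without control replicate 2 or 3), between 14 and 17 genes of the further lists, and between 751 and 1208 of all genes. With local medians subtracted 4 members were called, without *GPC4*. Local medians took 3 genes of the further lists below the cut-off (12 called in place of 15). With the replicate number as a block, 984 genes were called in place of 1003, and the same 5 of the 9 members. Same-numbered control and KO libraries had correlations of their deviations of 0.0391, 0.134 and 0.0318, each the highest for its KO clone, and the labels give no pairing, so the numbers were not taken as pairs. With the other length the differences in share between groups moved by less than 1 SD, while the shares themselves moved by more for some genes, *GPC1* from 63.7% to 51.7% of the glypicans in control. *HAS2* and the control level of *VCAN* rest on few reads, and all members on 3 libraries a group. The part of counting error in the spread was not tested.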
